A study of Mus musculus with 6 samples.

Results

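The 10 genes described here encode the cytosolic sensors of RNA and DNA and the proteins that carry or temper their signal. They were chosen by name, with earlier results of these data known. The sensors are Ddx58, Ifih1, Dhx58 and Zbp1, the RNA-activated kinase is Eif2ak2 and the RNA editor is Adar. The adaptors are Mavs and Tmem173, and the kinases are Tbk1 and Ikbke. All 10 were found among the 55536 mouse gene IDs of the deposited tables. Total RNA was sequenced from RAW264.7, a transformed mouse macrophage line whose cells can become osteoclasts under the cytokine RANKL. In 3 libraries the cells received RANKL at 50 ng/mL together with etelcalcetide at 4 µM, a calcimimetic peptide that acts on the calcium-sensing receptor. In the other 3 libraries they received RANKL at 50 ng/mL alone, and no culture without RANKL was analysed here. In either group the labels give replicate 1 an exposure of 5 days, replicate 2 of 6 days and replicate 3 of 7 days, whereas the series design states 5 days throughout. The labels do not state that the replicates came from separate cultures. The p-values therefore reflect only how far these samples vary, and that variation may be technical. If the labelled days hold, the variation within a group also includes the time of exposure.

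RIG-I-like receptors are helicases of the cytosol that bind viral or misplaced self RNA. RIG-I (Ddx58) and MDA5 (Ifih1) pass the signal through their caspase recruitment domains to MAVS on the mitochondrial surface, and LGP2 (Dhx58), which lacks those domains, modulates them. DNA is detected by cGAS, whose cyclic dinucleotide product activates STING (Tmem173) on the endoplasmic reticulum. Both adaptors recruit the kinases TBK1 and IKK epsilon (Ikbke), which phosphorylate interferon regulatory factors and so switch on type I interferon genes. Several sensors are themselves interferon-stimulated genes in macrophages.

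The deposited values are FPKM, fragments scaled to exon length and to the assigned reads of the library, and corresponded to 13742913 to 16264432 gene-assigned reads per library. A gene was tested when at least 3 libraries reached 0.5 FPKM and 10 reads, and was called changed at a limma adjusted p under 0.05 (Benjamini-Hochberg over 11120 genes). Of the labelled cell type, 9 of 10 macrophage markers were high enough to test, of which 5 were higher with etelcalcetide and 0 lower. Among all tested genes 26.0% were higher and 27.0% lower. The 10 macrophage markers summed to 3315 to 3490 FPKM with etelcalcetide and 2841 to 3008 FPKM with RANKL alone. The 10 osteoclast markers summed to 206 to 219 FPKM with etelcalcetide and 393 to 539 FPKM with RANKL alone. Of the 9 tested, 6 were lower and 0 higher. The 8 dendritic cell markers summed to 22.8 to 30.1 FPKM with etelcalcetide and 7.21 to 10.0 FPKM with RANKL alone. No lymphocyte, neutrophil, mast cell, epithelial or endothelial marker was high enough to test. Of 8 fibroblast and osteoblast markers 1, Alpl, was tested and was lower, and the 8 summed to 1.05 to 1.295 FPKM with etelcalcetide and 1.56 to 1.89 FPKM with RANKL alone. Of the 8 lymphocyte markers 4, among them Cd3e, had 0 reads in all 6 libraries. In bulk RNA, fewer cells of a type and less RNA per cell cannot be told apart, and the part of these marker shifts in the results below was not tested.

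Promoter windows were available for 7 of the 10 genes in RefSeq (build GRCm38.p6), each running from 250 bases before to 50 bases after an annotated transcription start. The windows printed below are shown because Ddx58, Ifih1, Adar and Eif2ak2 carry an interferon-type motif, and Tbk1 is set beside them as a gene that did not pass the test. They lie on the minus strand for Ddx58 (chr4:40239776-40240075), Ifih1 (chr2:62646206-62646505), Eif2ak2 (chr17:78882523-78882822) and Tbk1 (chr10:121586745-121587044). The Adar window lies on the plus strand (chr3:89730468-89730767) and belongs to the furthest downstream of 3 annotated starts. Capitals mark matches, on either strand, to GAAANNGAA, part of the interferon-stimulated response element, or to its 10-letter form, which has a further A at the end.
Ddx58: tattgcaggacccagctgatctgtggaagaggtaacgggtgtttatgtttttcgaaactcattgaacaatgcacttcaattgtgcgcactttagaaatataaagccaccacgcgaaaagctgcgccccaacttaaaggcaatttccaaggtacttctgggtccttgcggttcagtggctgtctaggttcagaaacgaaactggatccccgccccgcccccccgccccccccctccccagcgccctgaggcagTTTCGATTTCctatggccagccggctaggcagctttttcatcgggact
Ifih1: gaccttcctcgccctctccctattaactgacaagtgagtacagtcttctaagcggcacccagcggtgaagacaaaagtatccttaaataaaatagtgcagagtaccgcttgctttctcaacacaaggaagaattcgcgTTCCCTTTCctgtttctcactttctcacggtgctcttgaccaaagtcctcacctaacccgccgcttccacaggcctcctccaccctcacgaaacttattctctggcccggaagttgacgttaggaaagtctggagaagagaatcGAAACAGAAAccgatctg
Adar: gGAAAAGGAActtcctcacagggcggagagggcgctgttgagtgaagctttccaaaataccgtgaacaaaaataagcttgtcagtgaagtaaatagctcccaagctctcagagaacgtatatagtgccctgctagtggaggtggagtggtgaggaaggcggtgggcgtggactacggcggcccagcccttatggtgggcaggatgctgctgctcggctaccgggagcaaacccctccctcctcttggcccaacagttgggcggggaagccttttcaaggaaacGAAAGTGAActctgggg
Eif2ak2: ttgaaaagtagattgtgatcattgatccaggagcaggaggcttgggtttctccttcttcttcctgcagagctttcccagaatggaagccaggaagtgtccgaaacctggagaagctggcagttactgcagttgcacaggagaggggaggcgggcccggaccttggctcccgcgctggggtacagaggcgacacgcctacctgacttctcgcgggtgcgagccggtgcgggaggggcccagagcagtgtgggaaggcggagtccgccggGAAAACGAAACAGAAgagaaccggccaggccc
Tbk1: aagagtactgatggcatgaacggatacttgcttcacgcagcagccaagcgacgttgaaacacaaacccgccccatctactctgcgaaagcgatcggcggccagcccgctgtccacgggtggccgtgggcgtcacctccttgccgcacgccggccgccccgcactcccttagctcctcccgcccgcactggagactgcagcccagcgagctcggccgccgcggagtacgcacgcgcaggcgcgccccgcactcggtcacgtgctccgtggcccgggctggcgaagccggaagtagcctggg

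A match to the 10-letter form stood in the windows of Ddx58, Ifih1 and Eif2ak2, starting 2, 32 and 18 bases downstream of the transcription start. That form was present in 3.45% of all 32544 distinct promoter windows of that length. The 9-letter form, which every longer match also holds, was present in 8.53% of all windows and was found in addition in the downstream Adar window, at positions -249 and 33 from the start. Ifih1 held another match to it at position -112, and Eif2ak2 held another at position 24. The other Adar windows and those of Ikbke, Mavs and Tbk1 held neither form. The gamma-activated motif TTCNNNGAA, present in 8.33% of all windows, was matched in the downstream Adar window and in Eif2ak2. The NF-kB consensus, present in 4.53% of all windows, was matched in none of the 9 windows of these genes. A match says only that these letters stand in the window. Of the genes with the 10-letter form, Ddx58 and Ifih1 rose and Eif2ak2 did not pass the test. Adar, with the 9-letter form only, rose. Of the genes with neither form, Ikbke rose and Mavs and Tbk1 did not pass. Whether a motif has a part in these changes was not tested.

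**Figure D1:**
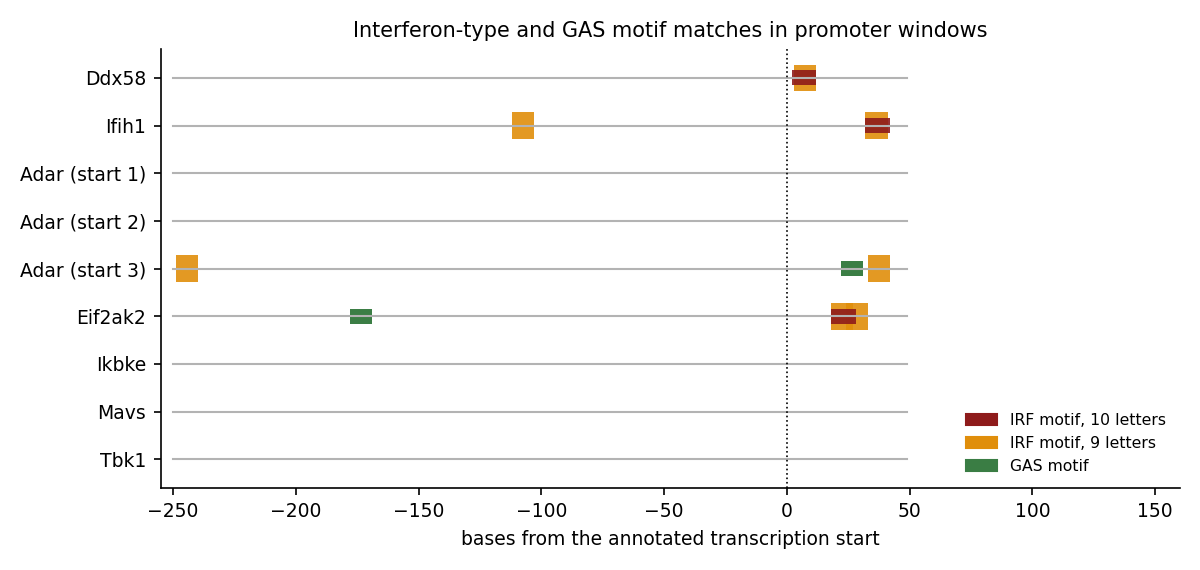
Positions of motif matches in the 9 RefSeq promoter windows of 7 genes, in bases from the annotated transcription start (dotted line at 0). The dark red boxes are the 10-letter interferon-type motif, the orange boxes its 9-letter form and the green boxes the gamma-activated motif, and the 10-letter matches of Ddx58, Ifih1 and Eif2ak2 lie downstream of the start.

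With etelcalcetide, all 3 tested sensors rose, as did 1 of 2 adaptors and 1 of 2 kinases. Of the 9 genes high enough to test, 6 rose, 0 fell and 3 did not pass. Of all tested genes 53.0% changed, 26.0% being higher and 27.0% lower, so a larger share of these genes rose. Because the genes were chosen with earlier results of these data known, the shares given here are descriptive and test nothing. The genes that rose were the sensors Ddx58, Ifih1 and Dhx58, the adaptor Tmem173, the kinase Ikbke and the editor Adar. The adaptor Mavs, the kinase Tbk1 and the RNA-activated kinase Eif2ak2 did not pass, and Zbp1 was too low to test. Of the 9 tested, 5 rose by at least 2-fold, against 4.10% of all tested genes. In deposited FPKM, 8 of the 10 genes showed no overlap between groups, all 8 being higher. Among all tested genes 61.2% showed no overlap and 36.7% showed none while being higher.

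**Figure D2:**
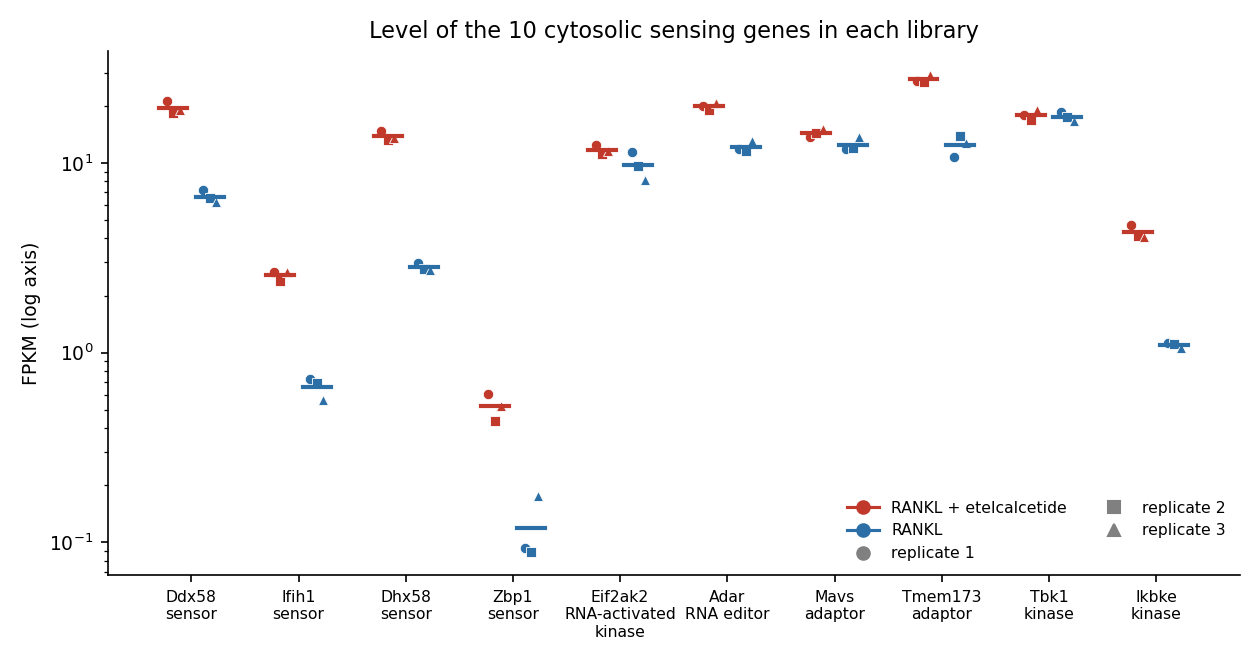
FPKM of each of the 10 genes on a log axis, with a point for each library (circle, square and triangle for replicates 1, 2 and 3) and a bar for the group mean (n = 3 each). RANKL plus etelcalcetide (red) stands left of RANKL (blue), and the red and blue points overlap only for Eif2ak2 and Tbk1.

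Among the RIG-I-like receptors, Dhx58 showed the largest change and Ddx58 the highest level. Ddx58 (ENSMUSG00000040296, chromosome 4, 40203773 to 40239828) stood at 21.3, 18.3 and 19.0 FPKM in etelcalcetide replicates 1, 2 and 3, and at 7.19, 6.52 and 6.22 FPKM in RANKL replicates 1, 2 and 3. Every etelcalcetide value was more than double any RANKL value. The change was 1.46 on the log2(FPKM + 0.1) scale (SE 0.0813, limma adjusted p = 2.13e-06), a fold of 2.76 with a 95% interval of 2.43 to 3.13. Its fold change was higher than that of 98.2% of all tested genes.

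Ifih1 (ENSMUSG00000026896, chromosome 2, 62595798 to 62646255), the sensor of long double-stranded RNA, was the least abundant of the RIG-I-like receptors. Its level was 2.67, 2.39 and 2.67 FPKM in the etelcalcetide libraries, against 0.722, 0.694 and 0.565 FPKM in the RANKL libraries. The groups were well apart, but the RANKL values rest on 67 to 90 reads per library. The log2 fold change was 1.75 (SE 0.141, limma adjusted p = 1.81e-05), or 3.36-fold with a 95% interval of 2.69 to 4.19. The size depended on the pseudocount: with 1 FPKM in place of 0.1 the log2 fold change was 1.06, still past the threshold.

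Dhx58 (ENSMUSG00000017830, chromosome 11, 100694884 to 100704271), the helicase without a signalling domain, had 14.7, 13.2 and 13.6 FPKM in the etelcalcetide libraries and 2.96, 2.77 and 2.71 FPKM in the RANKL libraries. The spread within each group was small beside the gap between them. The log2 fold change was 2.18 (SE 0.0772, limma adjusted p = 2.03e-07), or 4.53-fold with a 95% interval of 4.01 to 5.11, higher than for 99.4% of all tested genes. With a pseudocount of 1 FPKM in place of 0.1 it was 1.89, still past the threshold. The gene shares 4.31% of its exon length with the antisense gene Dhx58os, which had at most 3 reads in any library.

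Zbp1 (ENSMUSG00000027514, chromosome 2, 173206612 to 173218923), a sensor of Z-form nucleic acid that can trigger necroptosis, was the lowest of the 10 genes. It had 33, 21 and 30 reads in the etelcalcetide libraries and 5, 5 and 9 reads in the RANKL libraries, equal to 0.606, 0.433 and 0.523 FPKM with etelcalcetide and to 0.0928, 0.0892 and 0.176 FPKM with RANKL alone. All etelcalcetide values lay above all RANKL values. Only 2 libraries reached 0.5 FPKM, so it was not tested. The ratio of summed reads, 84 with etelcalcetide over 19 with RANKL alone, was 4.20 after adjustment for depth and scaling, with a 95% exact conditional interval of 2.53 to 7.32 that covers counting error only. Fitted without the filter on low values, its log2 fold change was 1.46 (SE 0.289, limma adjusted p = 0.0119). The 0.1 FPKM added to each value in that fit is close to the RANKL values. It draws the estimate below the log2 read ratio of 2.07, so the size is uncertain.

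Eif2ak2 (ENSMUSG00000024079, chromosome 17, 78852564 to 78882573) encodes PKR, which binds double-stranded RNA and phosphorylates the translation factor eIF2 alpha. It stood at 12.4, 11.1 and 11.5 FPKM in the etelcalcetide libraries, against 11.4, 9.68 and 8.18 FPKM in the RANKL libraries. The groups overlapped, through RANKL replicate 1. The log2 fold change of 0.19 (95% interval -0.07 to 0.45) did not pass (limma adjusted p = 0.186). Without RANKL replicate 1 it was 0.31 and passed at an adjusted p of 0.0265 (limma), within a range of 0.0265 to 0.533 over 17 alternatives.

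Adar (ENSMUSG00000027951, chromosome 3, 89715022 to 89753446) encodes the enzyme that deaminates adenosine in double-stranded RNA and so keeps self RNA from activating MDA5. Its level was 20.0, 19.1 and 20.8 FPKM in the etelcalcetide libraries and 11.8, 11.5 and 13.1 FPKM in the RANKL libraries. The groups did not overlap, and the log2 fold change was 0.63 (SE 0.0640, limma adjusted p = 6.43e-05), or 1.55-fold. Values are per gene, so transcripts from its 3 annotated starts cannot be told apart. It shares 16.8% of its exon length with Chrnb2 on the opposite strand. Chrnb2 had 328 to 398 reads in the etelcalcetide libraries and 163 to 211 in the RANKL libraries, equal to 11.1% to 15.4% of the Adar reads, and it rose too (log2 fold change 0.79, limma adjusted p = 0.000989). Whether the libraries kept strand was not stated in the sources used, and the part of this overlap in the Adar value was not tested.

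Of the adaptors, the one for DNA signalling rose and the one for RNA signalling did not pass. Tmem173 (ENSMUSG00000024349, chromosome 18, 35733679 to 35740554), which encodes STING, had 27.2, 26.6 and 29.3 FPKM in the etelcalcetide libraries and 10.8, 13.9 and 12.8 FPKM in the RANKL libraries. The lowest etelcalcetide value was nearly double the highest RANKL value. The log2 fold change was 1.07 (SE 0.0919, limma adjusted p = 2.54e-05), or 2.102-fold with a 95% interval of 1.82 to 2.43.

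Mavs (ENSMUSG00000037523, chromosome 2, 131234063 to 131248025), the mitochondrial adaptor, stood at 13.8, 14.4 and 15.1 FPKM in the etelcalcetide libraries, against 11.8, 12.03 and 13.7 FPKM in the RANKL libraries. The deposited values just failed to overlap, with etelcalcetide replicate 1 at 13.8 and RANKL replicate 3 at 13.7 FPKM. After scaling, the log2 fold change was 0.13 (95% interval -0.04 to 0.29, limma adjusted p = 0.167). It passed when scaled by library totals only (log2 fold change 0.21, limma adjusted p = 0.0436) and without RANKL replicate 3 (0.19, limma adjusted p = 0.0369), in a range of 0.0369 to 0.577 over 17 alternatives.

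The kinases differed in level and in change. Tbk1 (ENSMUSG00000020115, chromosome 10, 121546455 to 121586787), whose product is recruited by either adaptor, had 18.0, 16.9 and 19.0 FPKM in the etelcalcetide libraries and 18.5, 17.5 and 16.6 FPKM in the RANKL libraries. The groups overlapped throughout. Its log2 fold change was -0.04, with a 95% interval of -0.19 to 0.10 (limma adjusted p = 0.595), and 0.04 when scaled by library totals only. As a fold, the 95% interval of Tbk1 ran from 0.876 to 1.07 under the scaling used, and it covers only the variation among these samples.

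Ikbke (ENSMUSG00000042349, chromosome 1, 131254343 to 131279606), the inducible relative of Tbk1, had 4.69, 4.12 and 4.09 FPKM in the etelcalcetide libraries and 1.12, 1.11 and 1.06 FPKM in the RANKL libraries. All etelcalcetide values were more than 3 times any RANKL value. The log2 fold change was 1.80 (SE 0.109, limma adjusted p = 3.41e-06), or 3.48-fold with a 95% interval of 2.94 to 4.13, higher than for 98.9% of all tested genes. Its size depended on the pseudocount: with 1 FPKM in place of 0.1 the log2 fold change was 1.28, still past the threshold.

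**Figure D3:**
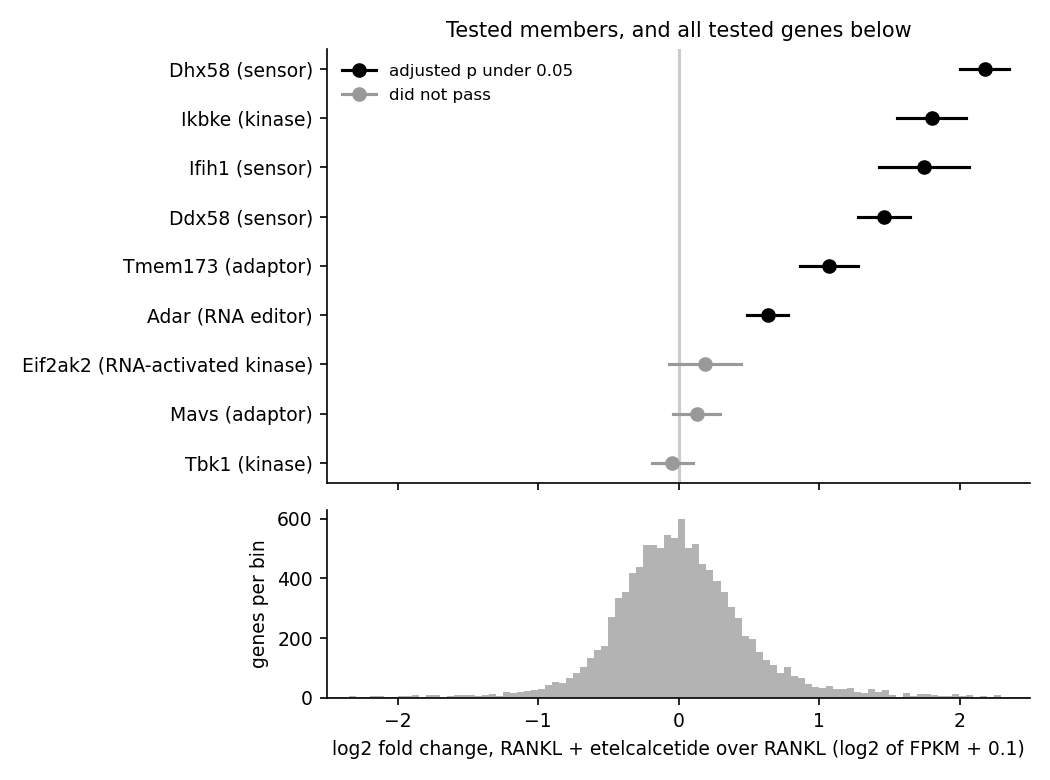
Upper panel: log2 fold change of the 9 tested genes (RANKL plus etelcalcetide over RANKL, n = 3 each) with its 95% limma interval, black where the adjusted p was under 0.05 and grey where it was not. Lower panel: all tested genes within 2.5 of 0 on the same axis, which leaves out 128 genes, and against which Dhx58, Ikbke, Ifih1 and Ddx58 lie in the upper tail.

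Ratios between genes within a library do not depend on scaling between libraries, and 8 were compared. Each was free of overlap between the groups and reached p = 0.1 in a two-sided exact permutation test. That is the smallest that 3 against 3 libraries allow, so none could pass 0.05. The adjusted value over the 8 ratios was also 0.1. The share of other gene pairs without overlap was not computed, and of single tested genes 61.2% showed no overlap in FPKM. Ikbke relative to Tbk1 was 0.260, 0.244 and 0.215 in the etelcalcetide libraries and 0.0604, 0.0635 and 0.0639 in the RANKL libraries, a difference of 1.93 in log2 ratio. The inducible kinase thus stayed below Tbk1 per length in every library but came nearer to it with etelcalcetide.

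Among the helicases, Dhx58 relative to Ddx58 averaged 0.709 ± 0.0171 with etelcalcetide and 0.425 ± 0.0122 with RANKL alone (SD, n = 3 each). Ifih1 relative to Ddx58 averaged 0.132 ± 0.00793 with etelcalcetide and 0.0992 ± 0.00788 with RANKL alone. Dhx58 relative to Ifih1 averaged 5.38 ± 0.245 with etelcalcetide and 4.30 ± 0.440 with RANKL alone. Dhx58 was thus higher relative to each of its relatives in all 3 etelcalcetide libraries.

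The other ratios concern sensors, adaptors and other partners. Like those above, they restate the changes of single genes already given and add no further evidence. Mavs relative to Ddx58 averaged 0.742 ± 0.0836 with etelcalcetide and 1.89 ± 0.282 with RANKL alone, so that the adaptor was the less abundant of the pair, per length, only in the etelcalcetide libraries. Tmem173 relative to Mavs was 1.97, 1.85 and 1.94 in the etelcalcetide libraries and 0.912, 1.16 and 0.934 in the RANKL libraries. Adar relative to Ifih1, the sensor whose self ligands it edits, averaged 7.76 ± 0.259 with etelcalcetide and 18.7 ± 3.85 with RANKL alone. Zbp1 relative to Eif2ak2 averaged 0.0444 ± 0.00503 with etelcalcetide and 0.0129 ± 0.00739 with RANKL alone, resting on the few Zbp1 reads given above.

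**Figure D4:**
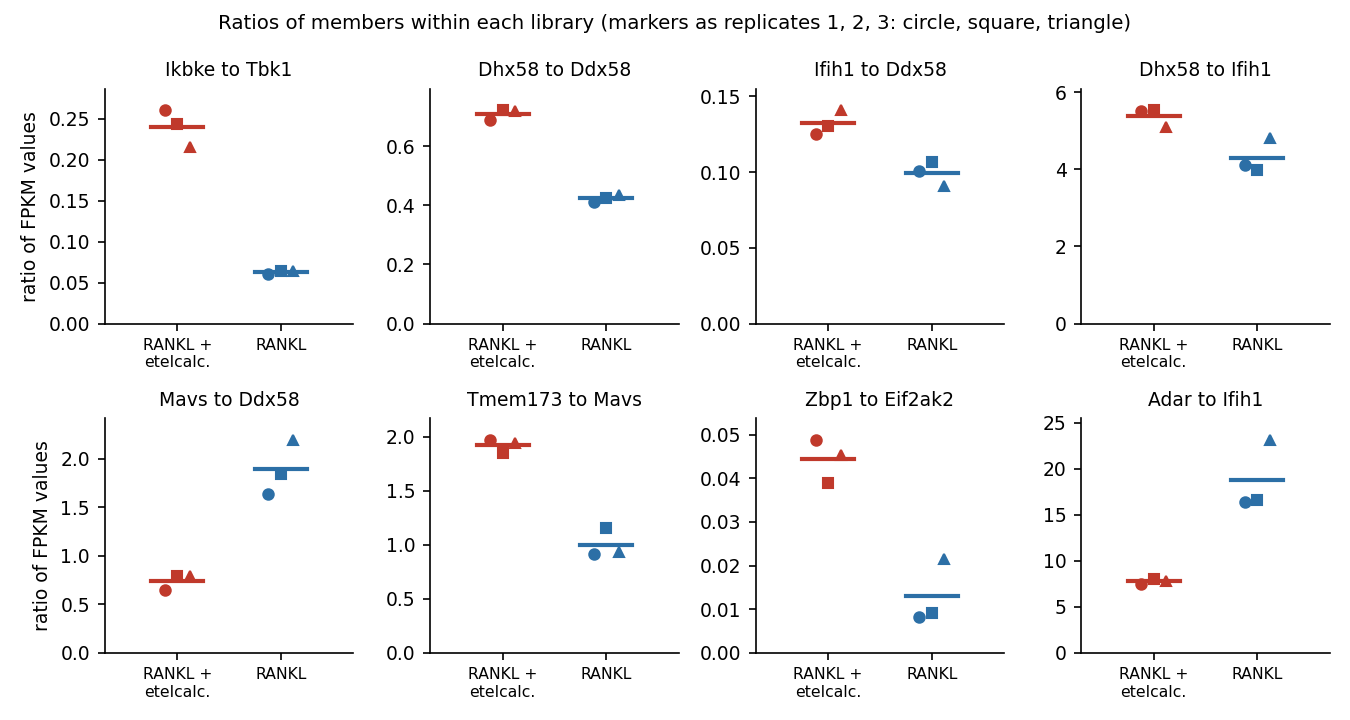
Ratio of FPKM values of 2 genes within each library, for 8 pairs, with each axis starting at 0. RANKL plus etelcalcetide (red) stands left of RANKL (blue), points are libraries and bars group means (n = 3 each), and in no panel do the groups overlap.

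Ordered by mean FPKM, the etelcalcetide libraries had Tmem173 first at 27.7 ± 1.40 FPKM, then Adar, Ddx58, Tbk1, Mavs, Dhx58, Eif2ak2, Ikbke, Ifih1 and Zbp1 (SD, n = 3). In the RANKL libraries Tbk1 was first at 17.5 ± 0.970 FPKM, then Mavs, Tmem173, Adar, Eif2ak2, Ddx58, Dhx58, Ikbke, Ifih1 and Zbp1. Neighbours in the order had overlapping ranges in the etelcalcetide libraries for Adar and Ddx58, Ddx58 and Tbk1, and Mavs and Dhx58. In the RANKL libraries they overlapped for Mavs and Tmem173 and for Tmem173 and Adar. Ddx58 held place 3 with etelcalcetide and place 6 with RANKL alone, while Ikbke, Ifih1 and Zbp1 held the lowest places in both groups. Among all tested genes, the mean level of Dhx58 exceeded that of 66.9% of genes with etelcalcetide and of 25.5% with RANKL alone.

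The rest of the pathway was followed in 11 lists with 160 distinct genes, of which 138 were tested, 55 rose, 33 fell and 50 did not pass. Their median log2 fold change was 0.07, beside -0.01 for all tested genes. Each count below stands beside 26.0% higher and 27.0% lower among all tested genes. The share that rose was near this, at 25% to 33.3%, for receptor helpers, inhibitors, nucleic acid removal and the ZBP1 and eIF2 alpha arms. Genes named below are, for each list, those with the smallest adjusted p, with cGAS, Irf3, Irf7 and Ifnb1 whatever their value. Values are means ± SD of 3 libraries per group.

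Of 13 tested helpers of the RIG-I-like receptors, 4 rose (30.8%, beside 26.0% of all tested genes) and 6 fell. Trim25, a ubiquitin ligase that activates RIG-I, rose to 56.6 ± 2.37 FPKM with etelcalcetide, against 42.1 ± 1.09 FPKM with RANKL alone. The helicases Dhx9, Dhx15 and Ddx21, which have wider roles in RNA metabolism, fell by 0.64, 0.56 and 0.51 on the log2 scale. On the DNA side, 2 of 16 tested genes rose and 9 fell. Cgas itself did not pass, at 15.0 ± 1.08 FPKM with etelcalcetide and 14.9 ± 0.769 FPKM with RANKL alone (limma adjusted p = 0.402), and the 95% interval of its log2 fold change ran from -0.23 to 0.08. Hmgb1, a chromatin protein, fell by 0.56, and Xrcc6 and Xrcc5, the Ku subunits that bind DNA ends, fell by 0.51 and 0.44 on the log2 scale. Polr3c, a subunit of RNA polymerase III, rose by 0.39.

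Of 14 tested genes of STING traffic and cyclic dinucleotide handling, 6 rose and 2 fell. Stim1, a calcium sensor that retains STING in the endoplasmic reticulum, rose to 6.84 ± 0.279 FPKM with etelcalcetide, against 4.02 ± 0.172 FPKM with RANKL alone. Atg9a, a membrane protein of autophagy, rose by 0.73, with 32.6% of its exon length shared with other genes. Irf5, Nlrx1, Eif2ak1 and Myd88, named below, share 11.3% to 14.1% of theirs with antisense genes. Insig1, an endoplasmic reticulum protein of sterol control, and Ap1s1, an adaptor subunit for vesicle coats, fell by 0.71 and 0.37 on the log2 scale.

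The relay from the adaptors to IRF and NF-kB factors had 8 of 20 tested genes higher and 3 lower. Irf3, the factor phosphorylated by TBK1 in most cells, rose to 14.3 ± 0.0755 FPKM with etelcalcetide, against 10.9 ± 0.473 FPKM with RANKL alone (log2 fold change 0.31, limma adjusted p = 0.00237). Irf7, its interferon-inducible relative, rose by 2.77 and Irf5 by 0.93 on the log2 scale. The NF-kB subunit genes Rela and Nfkb1 rose by 0.53 and 0.45. This count rested in part on single libraries: 7 genes of the list changed without etelcalcetide replicate 1, and 11 with all libraries.

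Inhibitors of sensor signalling had 6 of 18 tested genes higher and 2 lower. Usp18, which removes ISG15 and restrains the interferon receptor, rose to 9.06 ± 0.677 FPKM with etelcalcetide, against 3.63 ± 0.396 FPKM with RANKL alone. Nlrx1, a mitochondrial protein reported to restrain MAVS, rose by 0.93 and Smurf1, a ubiquitin ligase, by 0.53, while Dok3, an adaptor protein, fell by 0.59 on the log2 scale. Of the genes that remove or edit nucleic acid, 3 of 12 tested rose and 3 fell. Apobec3, a cytidine deaminase, rose by 0.50 on the log2 scale. Rnaseh2b, a subunit of RNase H2, and Pnpt1, a mitochondrial exoribonuclease, fell by 0.74 and 0.70. Trex1, the exonuclease for cytosolic DNA, was listed at 0 in all libraries, and 100% of its exon length lies within Atrip.

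Downstream of Zbp1, 3 of 9 tested genes of the cell death arm rose and 2 fell. Ripk3, the kinase that Zbp1 binds, rose to 39.8 ± 0.944 FPKM with etelcalcetide, against 26.2 ± 1.31 FPKM with RANKL alone, and Casp6, an executioner caspase, rose by 0.36. Gsdmd, the pore-forming gasdermin D, fell by 0.40 on the log2 scale. Only 3 of these genes changed without RANKL replicate 1, without RANKL replicate 2 or without etelcalcetide replicate 2. In the eIF2 alpha arm, 3 of 9 tested genes rose and 4 fell. Eif2ak1, the haem-regulated kinase, and Ppp1r15a, a phosphatase subunit that reverses eIF2 alpha phosphorylation, rose by 0.38 and 0.55. Eif2s1, which encodes eIF2 alpha, and Dnajc3, an inhibitor of PKR, fell by 0.50 and 0.51 on the log2 scale.

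Genes of the interferon output were mostly low in these libraries. None of the interferon genes listed was high enough to test. Ifnb1 had 0 reads in all 6 libraries, where a floor of 3 reads corresponds to 0.246 to 0.291 FPKM per library, covering counting error only. In all, 8 of 18 genes of the output list were at 0 in every library, and 3 more were below the filter. Of the 7 that were tested, 4 (Ccl5, Ifit1, Mx2 and Rsad2) reached the filter in no RANKL library, so that their entry into the test required a high value with etelcalcetide. The other 3, Cxcl10, Isg15 and Ifit2, rose. Ccl5, a T cell chemokine, stood at 5.25 ± 1.03 FPKM with etelcalcetide and 0.321 ± 0.210 FPKM with RANKL alone. Isg15, a ubiquitin-like modifier, stood at 8.91 ± 0.547 and Cxcl10, a chemokine, at 7.62 ± 1.20 FPKM with etelcalcetide, against 1.81 ± 0.3797 and 2.53 ± 0.0782 FPKM with RANKL alone. Rsad2, the antiviral enzyme viperin, stood at 1.46 ± 0.268 FPKM with etelcalcetide and 0.290 ± 0.135 FPKM with RANKL alone.

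Of the receptor and STAT relay, 9 of 10 tested genes rose, and Jak1 did not pass. Stat2 and Irf9, parts of the factor that binds the interferon-stimulated response element, rose to 8.70 ± 0.613 and 10.2 ± 0.215 FPKM with etelcalcetide, against 3.85 ± 0.162 and 5.15 ± 0.203 FPKM with RANKL alone. Tyk2, a kinase of the type I receptor, and Ifngr1, a chain of the interferon gamma receptor, rose by 0.77 and 0.64 on the log2 scale. Endosomal sensing genes moved both ways, with 5 of 12 tested higher and 2 lower. Tlr7, the endosomal sensor of single-stranded RNA, fell to 11.4 ± 0.622 FPKM with etelcalcetide, against 25.9 ± 5.83 FPKM with RANKL alone (log2 fold change -1.24, limma adjusted p = 9.12e-05). Its chaperone Unc93b1, the adaptor Myd88 and the kinase Irak4 rose by 0.47, 0.47 and 0.68 on the log2 scale. Tlr7 and the RIG-I-like receptors thus changed in opposite directions in the same libraries.

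**Figure D5:**
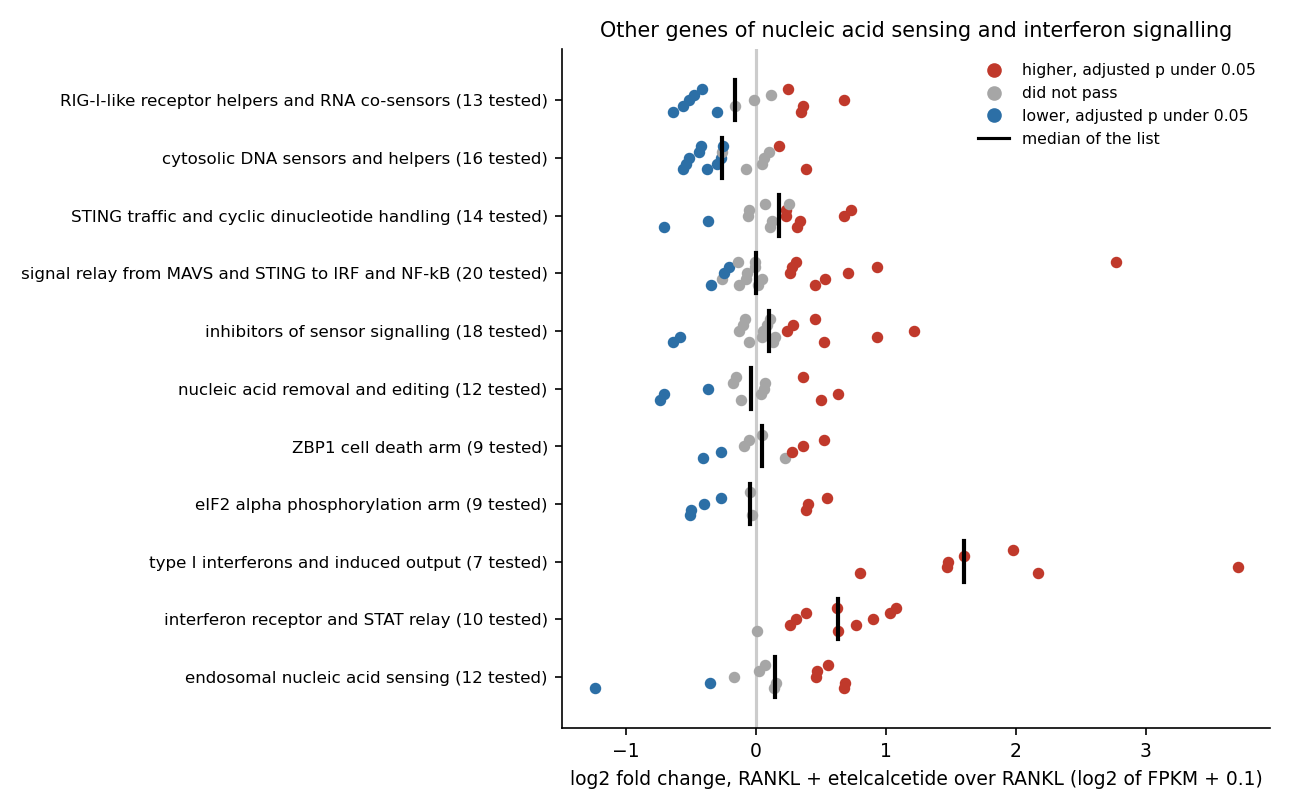
Log2 fold change (RANKL plus etelcalcetide over RANKL) of the tested genes of 11 lists, with a point for each gene coloured by its call and a black bar at the list's median. Of the receptor relay genes 9 of 10 lie right of 0 as called changes, and 4 of the 7 output genes entered only through their etelcalcetide libraries, whereas the lists of RNA and DNA co-sensors lean left.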

How the data were processed

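FPKM values of 55536 Ensembl genes were deposited by the authors, with a table for every library. The submitters' processing notes list HISAT2 2.1.0, featureCounts 1.6.0, Trimmomatic 0.38 and DESeq2 1.22.1 among the tools, without their roles. Although GRCh38 is the build in those notes, every ID was found in mouse GENCODE M21, whose GRCm38 coordinates and symbols were used. FPKM times merged exon length gave whole reads for 100% of values, within 0.01 reads. Factors by the trimmed mean of M values, from those reads, scaled each library (1.01 to 1.04 in etelcalcetide and 0.967 to 0.978 in RANKL libraries). After a pseudocount of 0.1 FPKM, limma 3.58.1 in R 4.3.3 was fitted to log2 values with a term for group and an intensity trend. Printed FPKM values are those deposited, before scaling. The low-value filter, the members and the lists were chosen with earlier results of these data known. Ratios, intervals and motif searches used Python 3.11.15, scipy 1.17.1 and pandas 2.3.3. Named pathway genes were up to 4 per list with the smallest adjusted p, with Cgas, Irf3, Irf7 and Ifnb1; 2 genes that this rule names are not reported here. Alternatives covered scaling, filter, pseudocount, limma-voom on the recovered reads, the replicate block and left-out libraries. Sequences of Dhx58, Tmem173 and Zbp1 were not used here.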

Additional observations from a re-analysis of the deposited data

How the results depend on the processing

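The 6 members that rose did so under all 17 alternatives (scaling, filter, pseudocount, limma-voom, replicate block, left-out libraries). Zbp1, too low to test otherwise, passed with no filter (log2 fold change 1.46), where the ZBP1 cell death arm had 3 changed genes in place of 5. Mavs passed with library totals alone (0.21), and leaving out single libraries gave 0.087 to 0.19 for Mavs and 0.067 to 0.31 for Eif2ak2. Tbk1 turned to 0.035 with library totals alone. Across the transcriptome 5894 genes changed, 2896 higher and 2998 lower, against 5830, 3558 higher and 2272 lower, with library totals alone. Leaving out single libraries gave 4797 to 6168 changed genes, 7 to 14 in the signal relay (11 with all libraries) and 3 to 5 in the ZBP1 cell death arm. The causes were not tested.

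Same-numbered libraries share labelled days, but their deviations from group means correlated at 0.0744, -0.0188 and -0.0299, and only 1 number was its library's best match. With the replicate block 5709 genes changed and no member changed its call. Alternatives without replicate 1, 2 or 3 of both groups were added after the data were seen and gave 3714 to 5323 changed genes. Without replicate 2 of both groups there were 3714, 1828 higher and 1886 lower, with 6 in the DNA sensor list, 5 in STING traffic, 6 in the relay and 2 in the ZBP1 arm. Without replicate 1 of both groups the relay had 7, the inhibitors 5 and the ZBP1 arm 2. These fits use fewer samples.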
